A study of Mus musculus with 12 samples.

Results

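The genes of glucose synthesis in the kidney, with those that bring fructose, glycerol and lactate into the same route, were followed in mouse kidneys with and without ischemia. The 9 genes were picked by name for their place in this metabolism, out of the 23420 genes of the count table, by a rule that uses no measured value, although earlier results of these data were known when they were picked. They are the gluconeogenic genes Pck1, Fbp1, G6pc and Slc37a4, the fructose kinase gene Khk, the glycerol kinase gene Gk, which the table lists under its older symbol Gyk, and the lactate dehydrogenase genes Ldha, Ldhb and Ldhd. RNA was sequenced from 12 kidneys of C57BL/6J male mice, with 4 kidneys in each of 3 groups. The mice were adults with free access to food, as the methods state, and part of each kidney was kept for histology. The control kidneys were taken at nephrectomy, as the methods state, although the labels give the same 20 min of ischemia and 24 h of waiting for every sample, controls included. The 8 ischemic kidneys had 20 min of clamping of the renal pedicle and were removed 24 h later, and the labels of these kidneys contradict each other. In ischemia set A the titles say anaesthesia and the group field says conscious, and in ischemia set B it is the reverse, so both sets of 4 are named neutrally and no difference between them is assigned to anaesthesia. In the methods the clamp was placed around the left kidney in an operation at least a day before the ischemia, under ketamine and xylazine, and the right kidney could be removed in the same session. The operation, the clamping and the day of reperfusion all separate the ischemic kidneys from the controls and cannot be told apart.

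Gluconeogenesis makes glucose from lactate, glycerol and amino acids, and in the kidney it takes place in the proximal tubule. PEPCK, encoded by Pck1, turns oxaloacetate into phosphoenolpyruvate, fructose-1,6-bisphosphatase, encoded by Fbp1, removes a phosphate further along the route, and glucose-6-phosphatase, encoded by G6pc, releases free glucose inside the endoplasmic reticulum, where Slc37a4 carries its substrate. Ketohexokinase (Khk) commits fructose to the same cells' metabolism, glycerol kinase (Gk) admits glycerol, Ldha and Ldhb encode the subunits of L-lactate dehydrogenase, and Ldhd encodes the mitochondrial enzyme that oxidises D-lactate.

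The stretches of DNA in front of these genes are shown for 4 of the 9 genes: Pck1 and G6pc, which encode the enzymes at the entry and the exit of gluconeogenesis, the fructose gene Khk, and Ldha, whose level differed least from control. Each is the 250 bases before a transcription start of RefSeq, build GRCm38.p6 (the assembly also called mm10), read 5′ to 3′ on the gene's plus strand. The windows are chr2:173152823-173153072 for Pck1, chr11:101367466-101367715 for G6pc, chr5:30921309-30921558 for Khk and chr7:46845554-46845803 for Ldha, which has another RefSeq start not shown. Capitals mark matches on either strand to TATAAA (a core promoter element), ACGTCA (cyclic AMP response element core), ACGTG (hypoxia response element core) and AGGTCA (nuclear receptor binding core).
Pck1: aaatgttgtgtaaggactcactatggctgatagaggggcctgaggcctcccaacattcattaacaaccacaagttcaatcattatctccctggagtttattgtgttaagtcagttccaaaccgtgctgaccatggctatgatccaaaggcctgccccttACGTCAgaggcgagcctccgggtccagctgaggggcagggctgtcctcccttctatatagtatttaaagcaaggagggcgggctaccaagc
G6pc: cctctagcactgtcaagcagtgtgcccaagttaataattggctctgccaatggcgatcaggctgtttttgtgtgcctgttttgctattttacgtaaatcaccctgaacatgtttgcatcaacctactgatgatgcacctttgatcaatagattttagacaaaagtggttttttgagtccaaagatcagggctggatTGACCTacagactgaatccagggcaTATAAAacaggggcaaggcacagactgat
Khk: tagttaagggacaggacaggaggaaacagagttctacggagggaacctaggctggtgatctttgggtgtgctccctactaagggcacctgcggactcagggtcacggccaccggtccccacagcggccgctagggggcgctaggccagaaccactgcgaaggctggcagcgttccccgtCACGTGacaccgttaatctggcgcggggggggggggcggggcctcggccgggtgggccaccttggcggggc
Ldha: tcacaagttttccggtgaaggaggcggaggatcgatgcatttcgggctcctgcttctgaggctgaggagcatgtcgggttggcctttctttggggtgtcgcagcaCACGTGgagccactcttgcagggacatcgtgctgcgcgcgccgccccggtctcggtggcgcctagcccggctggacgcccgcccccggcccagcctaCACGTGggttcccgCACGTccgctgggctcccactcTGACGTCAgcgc
The Pck1 window held ACGTCA, from 91 to 86 bases before the start. The G6pc window held TATAAA at 29 bases and AGGTCA on the opposite strand, 54 to 49 bases before the start. The Khk window held a place that reads as ACGTG on both strands, within 71 bases of the start. The Ldha window held ACGTG at several places, the farthest 145 bases from the start, and ACGTCA on both strands within 12 bases of it. Of the 12 windows of the 9 genes, 4 held ACGTCA (Pck1, Ldha and overlapping windows of Slc37a4 that share the match) and 4 held ACGTG (Khk, Ldha, Ldhd and Gk). AGGTCA occurred in 3 windows (Ldhb, Slc37a4 and G6pc) and TATAAA in 2 (Slc37a4 and G6pc). Of all 32851 windows of this length, 6.47% held ACGTCA, 16.6% held ACGTG, 14% held AGGTCA and 12.4% held TATAAA. The hypoxia and cyclic AMP cores share 4 letters and can overlap each other. These are matches of letters and not sites shown to be bound.

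The libraries held between 15367342 and 44793350 counted reads, and levels are given as CPM, the count scaled to library size, with TMM factors between 0.968 and 1.03. A floor of 3 counts corresponded to 0.067 to 0.195 CPM, and the 9 genes had between 19 and 81221 counts in a kidney, so all 9 were measured above the floor in all 12 kidneys. The proximal tubule markers Lrp2, Cubn, Slc34a1 and Aqp1 were present in the control kidneys at a summed level of 5595 to 6138 CPM and stood at 420.4 to 869.4 CPM in the set A kidneys and at 276.3 to 907.4 CPM in those of set B. All 4 of 4 passed the test as lower in each set. Of the liver markers, Alb and Apoa1 were listed at 0 in the controls and Serpina1a at 0 to 1.54 CPM, and the fat markers Adipoq, Plin1 and Cfd were listed at 0 in every kidney. A gene listed at 0 in every kidney, as Apoa1 and these fat markers were, gives no measurement and does not show absence of the tissue. In these whole-kidney samples, fewer proximal tubule cells and less RNA of a gene per cell cannot be told apart.

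All 4 gluconeogenic genes fell after ischemia in both sets. Pck1, the enzyme of the committed step (chr2:173153048-173159273, plus strand), had 1495, 1386, 1641 and 2122 CPM in the control kidneys, 207.8, 581.5, 479.6 and 716.4 CPM in set A, and 517.2, 362.9, 1347 and 623.5 CPM in set B. Every ischemic kidney lay below the lowest control, but replicate 3 of set B, at 81.1% of the control mean, came close to it. The means were 1661 ± 324.5, 496.3 ± 215.4 and 712.7 ± 436.2 CPM (SD, n = 4 in each group here and for the means below). By the quasi-likelihood test of edgeR, with p-values adjusted by Benjamini-Hochberg over the 11664 genes tested, Pck1 was 3.35-fold lower in set A, a log2 fold change of -1.74 with a standard error of 0.33 (adjusted p = 6.85e-04), and 2.33-fold lower in set B, a log2 fold change of -1.22 with a standard error of 0.33 (adjusted p = 0.0112). The log2 fold change in set B was -1.75 when its replicate 3 was left out.

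G6pc, whose enzyme performs the last reaction of glucose release (chr11:101367561-101377903, plus strand), had 174.6, 151.2, 143.7 and 198 CPM in the controls, 0.603, 10.9, 6.39 and 12 CPM in set A, and 15, 13.2, 29.9 and 19.3 CPM in set B. Set A replicate 1 held only 19 counts of G6pc, 0.361% of the control mean, while the other 7 ischemic kidneys stood at 3.83% to 17.9%. It was 22.6-fold lower than control in set A (log2 fold change -4.50, standard error 0.47, edgeR adjusted p = 3.00e-06) and 8.62-fold lower in set B (-3.11, 0.47, adjusted p = 1.06e-04). The set A decrease was the largest among the 9 genes in either set, and leaving out its replicate 1 left a log2 fold change of -4.08.

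Slc37a4, the glucose-6-phosphate carrier that works with G6pc (chr9:44396852-44402968, plus strand), had 195.9, 181, 233.8 and 248.1 CPM in the controls, 24.1, 17.8, 18.2 and 19.2 CPM in set A, and 36.9, 25.9, 35 and 29.6 CPM in set B. The kidneys of a group lay close together, with the controls far above both ischemic sets, whose ranges nearly touched. It was 10.8-fold lower in set A (log2 fold change -3.44, standard error 0.17, edgeR adjusted p = 1.21e-10) and 6.73-fold lower in set B (-2.75, 0.17, adjusted p = 1.25e-09). Fbp1 (chr13:62864753-62888282, minus strand) had 56.1, 53.6, 90.7 and 80.5 CPM in the controls, 8.5, 13, 5.15 and 5.42 CPM in set A, and 11.1, 3.35, 4.4 and 9.71 CPM in set B. It was 8.77-fold lower in set A (log2 fold change -3.13, standard error 0.37, edgeR adjusted p = 5.89e-06) and 9.78-fold lower in set B (-3.29, 0.37, adjusted p = 3.75e-06). For both genes all 8 ischemic kidneys lay below all 4 controls.

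**Figure D1:**
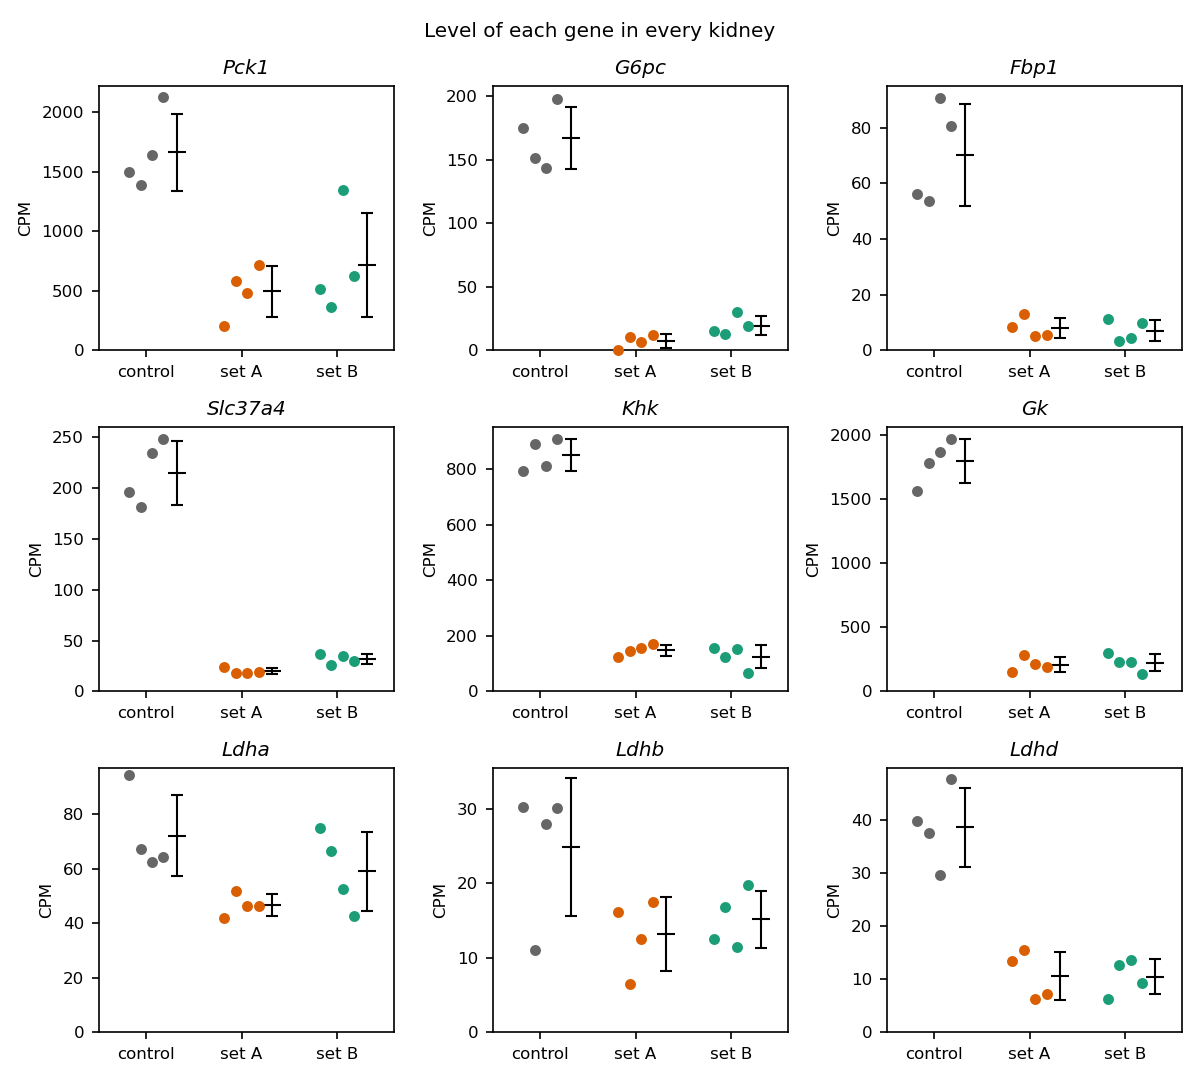
Level of each of the 9 genes in CPM (the count scaled to library size, linear axis from 0) in 4 control, 4 set A and 4 set B kidneys; each point is a kidney and the bars give the mean and SD. The ischemic kidneys lie below all controls for Pck1, G6pc, Fbp1, Slc37a4, Khk, Gk and Ldhd, whereas Ldhb overlaps in both sets and Ldha in set B.

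The genes that admit fructose and glycerol fell as well. Khk (chr5:30921431-30931248, plus strand) had 792, 891.7, 813.2 and 909.8 CPM in the controls, 122.1, 144.7, 154.5 and 169.4 CPM in set A, and 155.8, 125.2, 153.2 and 67.9 CPM in set B. The lowest of the 8 ischemic kidneys was replicate 4 of set B, at 7.97% of the control mean, and the others lay between 14.3% and 19.9%. Khk was 5.77-fold lower in set A (log2 fold change -2.53, standard error 0.19, edgeR adjusted p = 1.39e-08) and 6.78-fold lower in set B (-2.76, 0.19, adjusted p = 5.04e-09). Gk (chrX:85701937-85776819, minus strand) had 1563, 1783, 1863 and 1968 CPM in the controls, 148.7, 282.5, 211.7 and 192.5 CPM in set A, and 301.9, 232.8, 226.9 and 135.2 CPM in set B. It was 8.59-fold lower in set A (log2 fold change -3.10, standard error 0.20, edgeR adjusted p = 2.67e-09) and 8.0-fold lower in set B (-3.00, 0.20, adjusted p = 3.56e-09). The same replicate 4 of set B was the lowest ischemic kidney for Gk, at 7.53% of the control mean.

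The lactate dehydrogenase genes were divided. Ldhd, for D-lactate (chr8:111623785-111630374, minus strand), had 39.7, 37.4, 29.6 and 47.6 CPM in the controls, 13.4, 15.5, 6.3 and 7.23 CPM in set A, and 6.37, 12.7, 13.6 and 9.27 CPM in set B, with no overlap. It was 3.63-fold lower in set A (log2 fold change -1.86, standard error 0.34, edgeR adjusted p = 4.45e-04) and 3.68-fold lower in set B (-1.88, 0.34, adjusted p = 4.22e-04). The end of Ldhd overlaps Znrf1 on the opposite strand, and whether the counting used the strand is not given in the sources used here.

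Ldha, the subunit of the form that favours lactate production (chr7:46841475-46855627, plus strand), had 94.4, 67.2, 62.7 and 64.4 CPM in the controls, 42.1, 51.8, 46.3 and 46.5 CPM in set A, and 74.9, 66.7, 52.5 and 42.6 CPM in set B. Set A lay below all controls, while set B ran from below set A's highest kidney to above 3 of the 4 controls. It was 1.55-fold lower in set A (log2 fold change -0.63, standard error 0.20, edgeR adjusted p = 0.0300), a call that was lost without control replicate 1 (-0.46, adjusted p = 0.153), control replicate 2 (adjusted p = 0.0508), set A replicate 1 (adjusted p = 0.0986) or set A replicate 3 (adjusted p = 0.0769). In set B the log2 fold change was -0.29, with a 95% interval of -0.71 to 0.14 (edgeR adjusted p = 0.38). Processed pseudogenes of Ldha are annotated in the genome and the handling of reads shared with them is not given in the sources used here, so its level is uncertain. Ldhb, the subunit of the form that favours lactate use (chr6:142490249-142507957, minus strand), had 30.3, 11, 27.9 and 30.1 CPM in the controls, 16.2, 6.5, 12.6 and 17.5 CPM in set A, and 12.6, 16.9, 11.5 and 19.8 CPM in set B. Control replicate 2 lay below 7 of the 8 ischemic kidneys, and the groups overlapped. The log2 fold change of Ldhb was -0.91 in set A (95% interval -1.69 to -0.14, edgeR adjusted p = 0.0927) and -0.71 in set B (95% interval -1.49 to 0.07, adjusted p = 0.201). Without control replicate 2 the difference of set A passed the threshold (-1.16, adjusted p = 0.0272).

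In set A, 8 of the 9 genes passed the threshold of 0.05, all as lower, where 22.3% of all genes tested were called in either direction, 11.7% as lower and 10.5% as higher. In set B, 7 of 9 passed, all as lower, where 22.8% of all genes were called, 11.9% as lower and 10.9% as higher. The median log2 fold change of the 9 genes was -2.53 for set A and -2.75 for set B, beside -0.02 over all genes in each. The CPM ranges lay wholly below those of the controls for the same 8 and 7 genes, compared with 15.7% and 15.1% of all genes tested. For these genes the two-sided exact permutation test of CPM gave 0.0286, the smallest p that 4 against 4 kidneys allow, in each of the comparisons with control. Ranges that do not overlap fix this p, so it adds nothing to them. In all, 27 such tests were made over the 9 genes and 3 comparisons. The comparisons of set A and set B share the control kidneys.

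**Figure D2:**
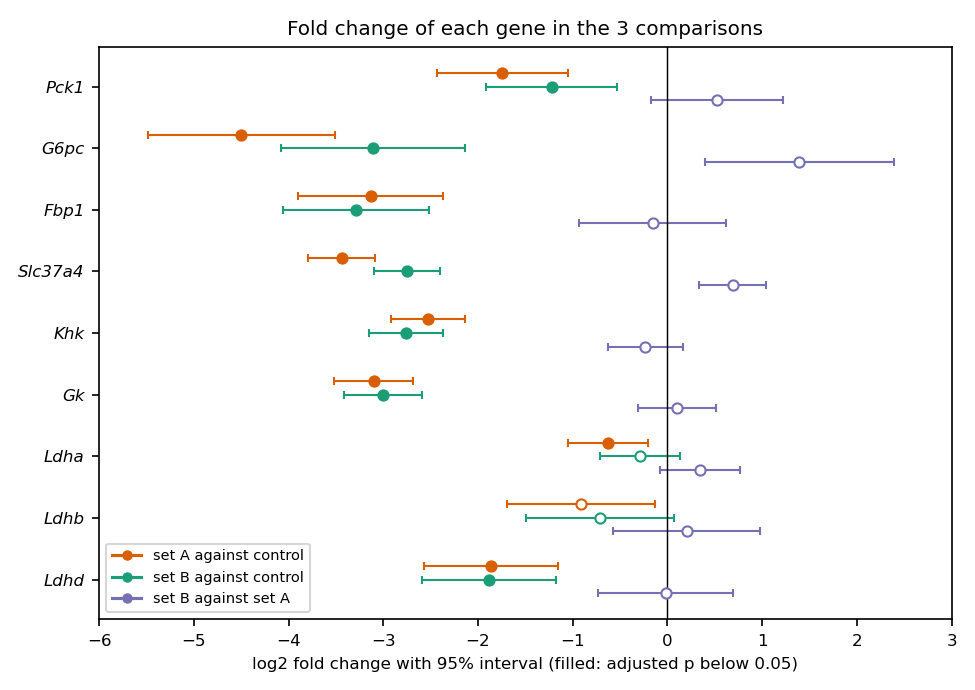
Log2 fold change of each of the 9 genes (horizontal axis, with its 95% interval from edgeR) for each ischemic set relative to control and for set B relative to set A; filled points have an adjusted p below 0.05. Points of the comparisons with control lie left of 0, furthest for G6pc in set A at -4.50, and none of the points of set B against set A is filled.

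The ischemic kidneys did not share an order across the 9 genes. Counting the lowest of the 8 ischemic kidneys for each gene, set A replicate 1 was lowest for 3 genes, set A replicate 2 for 2, set B replicate 4 for 2, and set A replicate 3 and set B replicate 2 for 1 each. The highest was set B replicate 1 for 3 genes, set B replicate 3 for 2 (Pck1 and G6pc), set A replicate 2 for 2 (Fbp1 and Ldhd), and set A replicate 4 and set B replicate 4 for 1 each. The median over the 9 genes of the percent of the control mean lay between 12.5% and 18.7% in the 8 kidneys.

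**Figure D3:**
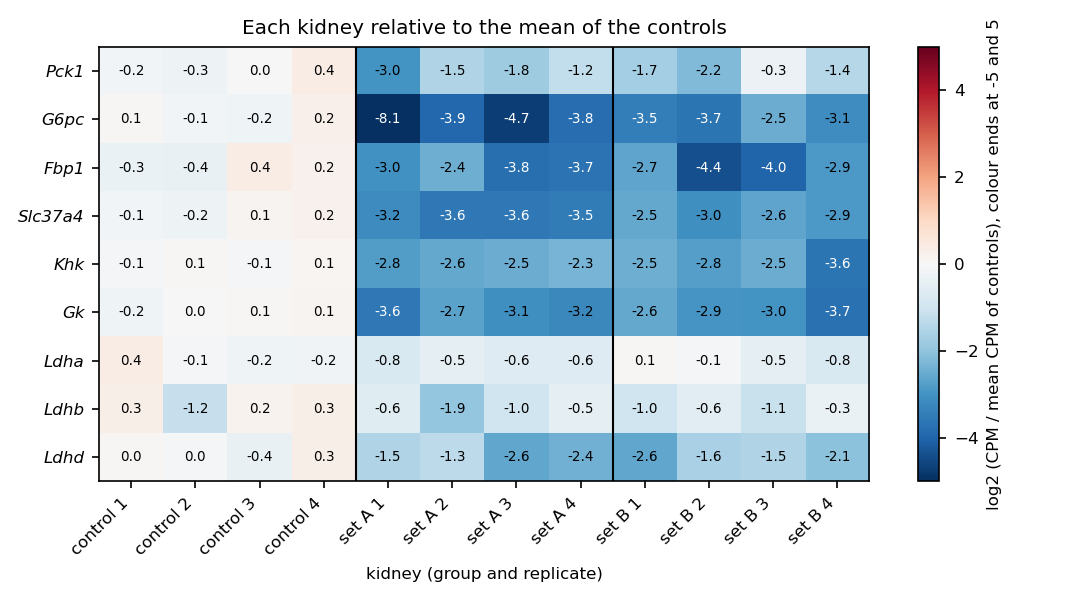
Log2 ratio of CPM to the control mean for the 9 genes (rows) in the 12 kidneys (columns), with each value printed in its cell. Ischemic kidneys are low from Pck1 down to Gk and in Ldhd, with set A replicate 1 the lowest cell for G6pc and set B replicate 3 close to control for Pck1.

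Between the ischemic sets none of the 9 genes passed the threshold, where 0.00857% of all genes tested were called as higher in set B and 0% as lower. G6pc was higher in every kidney of set B than in any of set A, at 19.4 ± 7.49 against 7.47 ± 5.18 CPM, a log2 fold change of 1.39 (95% interval 0.40 to 2.39). This difference had an unadjusted p of 0.00962 and an adjusted p of 0.93 in edgeR. Its partner Slc37a4 was likewise higher in every set B kidney, at 31.9 ± 5 against 19.8 ± 2.89 CPM, with a log2 fold change of 0.69 (95% interval 0.33 to 1.04), an unadjusted p of 7.09e-04 and an adjusted p of 0.591 in edgeR. These were the 2 of 9 genes whose sets did not overlap, in a table where 1.29% of all genes lay wholly higher in set B and 1.32% wholly lower. The exact permutation p of each was 0.0286, the smallest that 4 against 4 kidneys allow. The lack of overlap fixes this value, so it adds nothing to it. For the other genes the 95% intervals of the log2 difference, set B minus set A, were -0.17 to 1.21 for Pck1, -0.94 to 0.62 for Fbp1, -0.63 to 0.16 for Khk and -0.31 to 0.52 for Gk. They were -0.08 to 0.77 for Ldha, -0.58 to 0.98 for Ldhb and -0.73 to 0.69 for Ldhd. Each of these 7 had an edgeR adjusted p of 0.9997, and the intervals leave room for differences of more than 1.5-fold in Pck1, Fbp1, Khk, Ldha, Ldhb and Ldhd.

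Between genes, levels were compared as mean CPM per kilobase of exon. In the control kidneys the order was Pck1 (484.4), Khk (473.9), Gk (231.8), Slc37a4 (75.2), G6pc (69.1), Fbp1 (41.3), Ldha (21.8), Ldhb (15.8) and Ldhd (7.24). The neighbours Pck1 and Khk overlapped in their kidneys' values, as did Slc37a4 and G6pc, Ldha and Ldhb, and Ldhb and Ldhd. In set A, Pck1 (144.7) and Khk (82.2) still led, followed by Gk (27), and then Ldha (14.1), Ldhb (8.41), Slc37a4 (6.93), Fbp1 (4.71), G6pc (3.09) and Ldhd (1.99). Pck1 overlapped Khk there, and each neighbour from Ldhb downwards overlapped the next. In set B the order was Pck1 (207.8), Khk (69.9), Gk (29), Ldha (17.9), Slc37a4 (11.1), Ldhb (9.67), G6pc (8.02), Fbp1 (4.20) and Ldhd (1.97). There each neighbour from Khk downwards overlapped the next.

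The 3 ratios of isozymes set a gene against its isozyme within each kidney. The ratio of Ldha to Ldhb, on the log2 scale of counts, was 1.63 ± 0.69 in control kidneys, 1.91 ± 0.75 for set A and 1.96 ± 0.62 for set B (SD, n = 4; exact permutation p = 0.543 for each set against control, 0.611 after adjustment over the 9 ratio comparisons). Pck2 encodes the mitochondrial form of PEPCK, and the log2 ratio of Pck1 to Pck2 was 6.07 ± 0.56 in control kidneys, 3.16 ± 0.97 for set A and 4.22 ± 1.2 for set B. The difference from control was -2.90 in set A (exact permutation p = 0.0286, adjusted p = 0.129) and -1.85 in set B (exact permutation p = 0.0571, adjusted p = 0.171). Replicate 3 of set B, at 5.86, lay within the control range of 5.53 to 6.84. G6pc3 encodes a widely expressed glucose-6-phosphatase, and the log2 ratio of G6pc to G6pc3 was 5.19 ± 0.90 in the controls and 0.14 ± 1.46 in set A, a difference of -5.04 (exact permutation p = 0.0286, adjusted p = 0.129). In set B it was 3.09 ± 3.46, since G6pc3 had 0 counts in replicate 4 and 60 to 241 counts in the others, and the difference from control was -2.09 (exact permutation p = 0.314, adjusted p = 0.471). Without that kidney it was -3.81, the 3 remaining kidneys lying below all 4 controls (exact permutation p = 0.0571, the smallest that 3 against 4 kidneys allow). None of the 9 ratio comparisons passed after adjustment, and with 4 kidneys a group an unadjusted p cannot go below 0.0286.

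**Figure D4:**
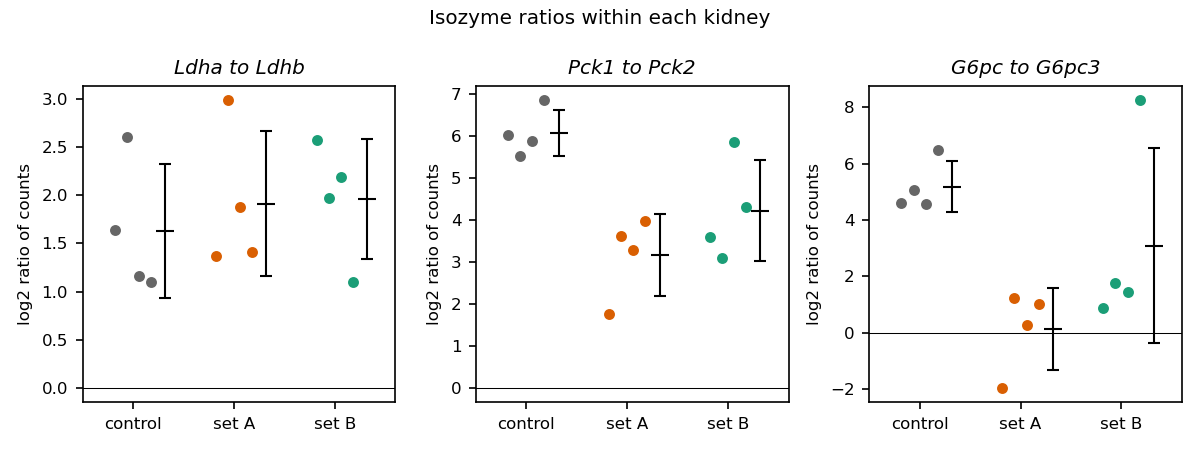
Log2 ratio of counts of Ldha to Ldhb, Pck1 to Pck2 and G6pc to G6pc3 in each of the 12 kidneys, with the mean and SD of each group. The Ldha to Ldhb ratios overlap between the groups, the set A values of the other ratios lie below all controls, and the point of set B at 8.25 for G6pc to G6pc3 is replicate 4, which had no count of G6pc3.

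The other genes of the route were described from lists of 77 pathway genes. Each list's count is to be read against the shares of all genes tested, of which 11.7% were called as lower and 10.5% as higher for set A, and 11.9% and 10.9% for set B. Of 8 committed genes of gluconeogenesis, 5 fell in each set: the 4 members and Pcx, pyruvate carboxylase, with means of 1103 CPM in controls, 255.8 CPM in set A kidneys and 210.2 CPM in set B kidneys (log2 fold changes -2.11 and -2.39). Pck2 rose in set A, from 24.9 to 50.7 CPM (log2 fold change 1.03, edgeR adjusted p = 0.00312), and was at 34.8 CPM in set B (0.49, adjusted p = 0.162). The list's median log2 fold change was -1.93 for set A and -1.81 for set B. The list of steps shared with glycolysis also held the malate dehydrogenase genes Mdh1 and Mdh2, which are not glycolytic. Of its 7 tested genes, 3 fell in each set and none rose (medians -0.26 and -0.26), beside 11.7% and 11.9% of all genes called as lower. Of its glycolytic genes only Tpi1 fell, and Gapdh, Pgk1, Pgam1 and Gpi1 did not pass in either set. Mdh1, cytosolic malate dehydrogenase, went from 3884 to 1006 CPM in each set. Tpi1 and Mdh2 were the other genes that fell, the set A call of Mdh2 being lost in 5 leave-outs (without control replicate 1, 2 or 4 or set A replicate 3 or 4, adjusted p up to 0.102). Eno1, and the aldose reductase gene Akr1b3 of the fructose list, were listed at 0 in all 12 kidneys and give no measurement.

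Of the 12 tested genes of the opposing glycolytic steps, 3 rose and 1 fell in set A and 4 rose and 1 fell in set B (medians 0.46 and 0.80), where 22.3% and 22.8% of all genes tested were called in either direction. The other 8 in set A and 7 in set B did not pass, Hk3, Pfkfb1, Pfkfb2, Pfkfb3 and Pfkfb4 in neither set. By CPM ranges that did not overlap the controls, 4 of the 12 lay higher and 3 lower in set A, and 3 higher and 1 lower in set B, where 12.6% and 15.7% of all genes tested for set A, and 11.6% and 15.1% for set B, lay wholly higher and wholly lower. Hk2, a hexokinase, had at most 1 count in a control kidney and 184 to 978 counts in an ischemic one, so that its level was higher by at least 224-fold (set A) and by at least 164-fold (set B), taking the controls at the floor of 3 counts per library. Pkm, pyruvate kinase of the M type, rose from 612.1 CPM to 1466 (set A) and 1633 (set B) (log2 fold changes 1.26 and 1.42). Its set B mean was raised by replicate 4, at 2694 CPM, the other set B kidneys having 1004 to 1482 CPM. Pfkm, a muscle-type phosphofructokinase, fell in both (-1.16 and -1.16). The platelet-type Pfkp rose in both (0.89 and 1.08), but its call in set A was lost in 10 of 18 alternatives, among them leaving out any control kidney, set A replicate 1, 3 or 4 or set B replicate 2 or 3, and in set B without control replicate 2 or set B replicate 4. Hk1, another hexokinase, had 139.4 to 154.9 CPM in controls, 186.1 to 286.3 CPM in set A, wholly above them, and 132.8 to 439.5 CPM in set B, overlapping them. It passed in set B (0.77, edgeR adjusted p = 0.0299) and not in set A (0.65, adjusted p = 0.0668). Neither outcome was stable, since Hk1 passed in 6 of 18 alternatives for set A, among them DESeq2 and leaving out set B replicate 1 or 4, and in 10 of 18 for set B, being lost with limma-trend, with only the 2 groups compared, and without any of the controls or set B replicate 2 or 4. Pfkl and Pklr, of the liver-type phosphofructokinase and pyruvate kinase, lay wholly below the controls in set A and did not pass (-0.38 with edgeR adjusted p = 0.466 and -0.65 with adjusted p = 0.0562), Pklr passing in 6 of 18 alternatives for set A, among them leaving out set A replicate 2 or set B replicate 1 or 4.

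Of the 7 tested genes of fructose uptake and use, 6 fell in each set, the member Khk among them, and none rose (medians -2.42 and -2.23). Sord, which oxidises sorbitol to fructose, fell by 2.78 and 2.73 on the log2 scale, and Glyctk, glycerate kinase, fell by 2.42 and 2.23. In set A, Sord had 16.6 CPM in replicate 4 and 4.06 to 5.52 CPM in the other kidneys. Its set A log2 fold change ran from -3.52 to -2.55 over the 18 alternatives, all of which passed. Tkfc, which phosphorylates the glyceraldehyde made from fructose, fell by 1.47 and 1.87, the set A call being lost without set A replicate 1 (adjusted p = 0.0527). In set B it spread from 5.27 to 33.6 CPM. Its set B log2 fold change ran from -2.57 to -1.59 over the 18 alternatives, all of which passed. Slc2a2, the transporter GLUT2, fell by 1.64 and 1.17, and its set B call was lost without control replicate 3 or 4 or set B replicate 2, 3 or 4 (adjusted p up to 0.0561). Slc2a5, the fructose transporter GLUT5, had 179, 43, 172 and 118 counts in the controls, 0 counts in every set A kidney, which makes it at least 41.3-fold lower, and 2, 0, 0 and 7 counts in set B. The set B call of Slc2a5 held in 9 of 18 alternatives, and was lost with RLE size factors and without any of the controls or set B replicate 1, 2 or 3, among others. Slc2a9 did not pass.

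Of the 11 tested genes of lactate and pyruvate, 6 fell in set A and 5 in set B, with none higher (medians -1.86 and -1.48). The members Ldha and Ldhd, described above, are among those of set A, and Ldhd is among those of set B. The sodium-coupled lactate transporters Slc5a8 and Slc5a12 fell by 4.53 and 3.33 in set A and by 5.34 and 1.48 in set B on the log2 scale. Slc5a12 was the gene called between the sets, at 13.6 CPM on average in set A kidneys and 48.9 CPM in set B kidneys (log2 fold change 1.85, edgeR adjusted p = 0.0328), and this call held in 6 of 18 alternatives and in 2 of 12 leave-outs, those of set B replicate 2 and replicate 4. Mpc2, of the mitochondrial pyruvate carrier, fell by 2.0 and 1.73. Slc16a7, a monocarboxylate transporter, was at least 17-fold lower in set A and at least 12.8-fold lower in set B; its call held in 8 of 18 alternatives for set A, being lost with no filter on low counts and without any control or set A kidney, among others, and in 12 of 18 for set B, being lost without control replicate 1 or 2 or set B replicate 1, 2 or 3, among others. Of 7 tested glycerol genes, Gk and the glycerol-3-phosphate dehydrogenase gene Gpd1 (-1.09 and -1.26) fell, Gk being a member counted above, and the other 5 did not pass (list medians -0.38 and -0.56). These were 2 of 7, beside 11.7% and 11.9% of all genes called as lower.

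Of 6 genes for glutamine and alanine as precursors, the glutamine transporter Slc38a3 fell in each set (-1.09 and -1.61) and the other 5 did not pass, with list medians of -0.0021 and -0.0353; of all genes tested, 11.7% and 11.9% were called as lower. Among 13 regulators none rose, while 4 fell in set A and 5 fell in set B (medians -0.46 and -0.50), beside the same shares of all genes. Hnf4a, a nuclear receptor of the proximal tubule, fell from 1491 CPM to 575.1 and 499.9, and Ppargc1a, a coactivator of gluconeogenic genes, from 420.9 to 187.9 and 232.9. The insulin receptor gene Insr (-0.53 and -0.50) and the glucocorticoid receptor gene Nr3c1 (-0.46 and -0.60) also fell, Nr3c1 without its set A call when control replicate 3 or set A replicate 1 or 4 was left out. Irs2, an adaptor of the insulin receptor, passed in set B (-0.82, edgeR adjusted p = 0.0225) but not without control replicate 2 or 4 or set B replicate 1.

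**Figure D5:**
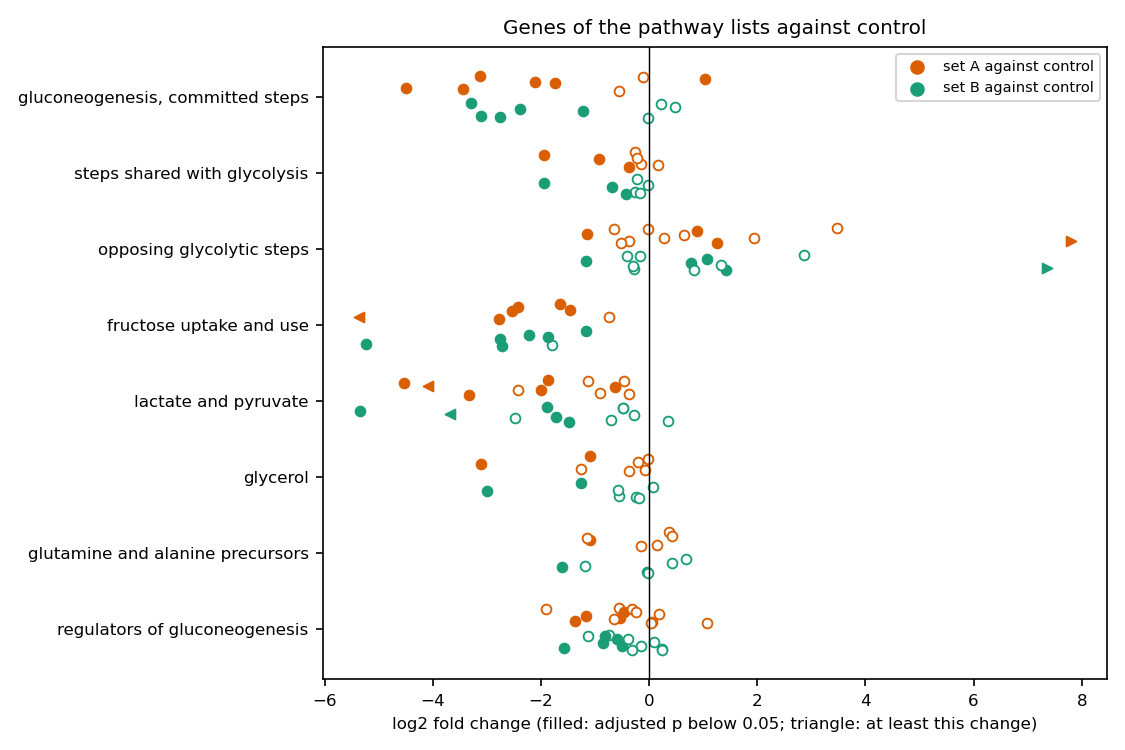
Log2 fold changes against control of the tested genes of each pathway list (a point is a gene, filled where the adjusted p is below 0.05, and a triangle marks a bound) in set A and set B. The fructose list lies lowest, with medians of -2.42 and -2.23. The opposing glycolytic list has medians of 0.46 and 0.80, but 8 of its 12 tested genes in set A and 7 in set B did not pass.

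Markers of the proximal tubule, where this route takes place, were also lower in both sets. Whether they varied together with the 9 genes from kidney to kidney was not tested. The summed level of the 4 general proximal tubule markers averaged 9.66% of the control mean for set A and 9.59% for set B, a sum made up mostly of Slc34a1 (4919 CPM in controls). Taken singly, Slc34a1 kept 8.55% of its control mean in set A kidneys, Lrp2 15%, Aqp1 15.3% and Cubn 20.5%, and in set B kidneys these were 8.66%, 14.2%, 12.2% and 21.9%. The S1 and S2 segment markers Slc5a2, Slc6a19 and Slc22a6, all 3 lower, went from 960.8 to 1247 CPM in controls to 287.2 to 408.3 CPM and 139.4 to 438.2 CPM. The S3 markers Slc7a13, Slc22a7 and Cyp7b1, also 3 of 3 lower, went from 29.2 to 42.1 CPM to at most 3.07 CPM. Some of the S3 calls were lost when a kidney was left out: in set A, Slc7a13 held in 14 of 18 alternatives (lost without any of the controls), Slc22a7 in 11 (lost with DESeq2 and without control replicate 1, 2 or 3 or set A replicate 1, 3 or 4) and Cyp7b1 in 12 (lost without control replicate 2, 3 or 4 or set A replicate 1, 2 or 3). In set B, Slc22a7 held in 11 (lost with DESeq2 and without control replicate 1, 2 or 3 or set B replicate 1, 3 or 4). Beside these values, set A kept 29.9% of the control mean of Pck1, 4.48% of G6pc, 17.3% of Khk and 11.6% of Gk, and set B kept 42.9%, 11.6%, 14.7% and 12.5%. For Fbp1, Slc37a4, Ldhd, Ldha and Ldhb, set A kept 11.4%, 9.22%, 27.5%, 64.6% and 53.1%. In set B the means of these genes were 7.15, 31.9, 10.5, 59.2 and 15.2 CPM, against 70.2, 214.7, 38.6, 72.2 and 24.9 CPM in controls. The injury markers Havcr1, Lcn2 and Krt20 rose 3 of 3, from at most 0.24 CPM summed to 47.1 to 92 CPM (set A) and 36.1 to 93.4 CPM (set B). The fibroblast and pericyte markers, of which Col1a1 and Col3a1 rose and Pdgfrb did not pass, went from 384.1 to 494.6 CPM to 908.9 to 2500 CPM and 1121 to 2344 CPM. Of the 3 thick ascending limb markers Slc12a1 fell, from 1511 CPM to 179.4 and 256 CPM, while Umod had 114.7 CPM in controls and 128.2 and 128.4 CPM after ischemia and did not pass, nor did Cldn16. In set B, Slc12a1 had 528.8 CPM in replicate 4 and 124 to 191.7 CPM in the other kidneys. The collecting duct markers Aqp2, Aqp4 and Scnn1g did not pass in either set. Scnn1g had 37.9 CPM in set B replicate 4 and 4.92 to 14.3 CPM in the other kidneys of set B. Of the 3 intercalated cell markers, Slc4a1 fell from 34.5 CPM to 7.86 (set A) and 4.4 (set B), while Atp6v1g3 (8.61 CPM in controls, 9.91 and 15.1 CPM after ischemia) and Slc26a4 (18.7 CPM, then 11 and 11.2 CPM) did not pass. The red blood cell gene Hbb-bs fell from 83.8 CPM to 35.4 and 21.4. Of the podocyte markers, Podxl rose from 70.03 CPM to 128.4 and 110.1, its set B call being lost without control replicate 4 or set B replicate 3, and Nphs1 did not pass. Of the distal convoluted tubule markers, Slc12a3 (964.3 CPM in controls, 827 and 876.4 CPM after ischemia) and Trpm6 did not pass. Pvalb had 1.08 to 4.08 CPM in controls, at most 0.128 CPM in set A, where it did not pass, and 0 in set B, where it was called lower (at least 12.9-fold). The lymphocyte gene Cd3e had 0.694 to 4.73 CPM in controls and 0 in all 8 ischemic kidneys, and was called lower in both sets. These calls of Pvalb and Cd3e in set B, and of Cd3e in set A, were lost when any of the control kidneys or any kidney of the set itself was left out, and that of Cd3e in set B also without set A replicate 3 or with no filter on low counts. The part of these shifts in the levels of the 9 genes was not tested.

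The genes whose pattern over the 12 kidneys was most like that of each member were found by the root mean square difference of log2 CPM, each gene taken relative to its control mean. For Khk these were Cyp2e1 (0.25) and Slc6a13 (0.26), for Gk Cyp4b1 (0.25) and Pank1 (0.26), and for Slc37a4 Bdh1 (0.27) and Pank1 (0.38). Fbp1 was nearest to Hlf (0.48) and Ace (0.48), Pck1 to Reps2 (0.40) and Dpyd (0.41), and G6pc, whose nearest gene was the most distant among the 9, to Agphd1 (0.80) and Acmsd (0.86). Ldha was nearest to Anp32a (0.18) and 4932438A13Rik (0.19), Ldhb to Arrdc3 (0.35) and Map3k5 (0.36), and Ldhd to Aldh9a1 (0.36) and Mut (0.37). The nearest neighbour of each is a description of these 12 kidneys.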

How the data were processed

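The authors prepared stranded mRNA libraries from 12 kidneys, sequenced them as single reads, checked quality with FastQC, aligned the reads to mm10 by STAR and made count tables by HTSeq. The raw counts deposited by the authors, not normalized, were used. Tool versions, the annotation release, the strand setting and the handling of reads that map to several loci are not given in the sources used here.

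Genes were filtered in edgeR 4.0.16 (R 4.3.3) by a minimum count of 10 and a total of at least 15, leaving 11664, and libraries were scaled by TMM. A quasi-likelihood negative binomial model with 3 groups used all 12 kidneys (common biological coefficient of variation 0.762), and p-values were adjusted by Benjamini-Hochberg over all genes, with a threshold of 0.05. The design has 4 kidneys a group, and whether each came from another mouse is not stated, so p-values measure the spread between these samples. Within a group the kidneys differed by at least 47.7 in chi-square per degree of freedom. Levels were compared with two-sided exact permutation tests in Python 3.11.15 with SciPy 1.17.1, and ratios with a prior count of 1. Floors cover counting error only.

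The members and the lists were chosen with earlier results of these data known. Named genes were the members, the pathway and marker lists, and the 2 genes nearest to each member by root mean square difference (prior count of 2). Some genes of these lists are not reported here and were left out of their counts and medians. Of 128 list genes, 4 were found under older symbols (among them Gk, as Gyk). Positions are those of the GENCODE vM21 annotation of mm10. The alternatives were RLE size factors, no filter, the replicate number as a block, only the 2 groups compared, DESeq2 1.42.0, limma-trend (limma 3.58.1) and leaving out each kidney. The code was tested on simulated data.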

Additional observations from a re-analysis of the deposited data

Results flagged for a closer look

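Among 36 groups of 4 values examined, 3 held a kidney whose gap to the nearest other exceeded 0.829 of the group's range, and chance gives about 1 in 20. Ldha was highest in control replicate 1, at 94.4 CPM, with a gap of 0.858 of the range, and the set A call of Ldha was among those lost without this kidney. Ldhb was lowest in control replicate 2, at 11.04 CPM, with a gap of 0.877, and the set A difference of Ldhb passed without it. The log2 ratio of G6pc to G6pc3 was highest in set B replicate 4, at 8.25, with a gap of 0.878, where G6pc3 had 0 counts and G6pc had 304 counts.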

How the results depend on the processing

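Against control, the differences of Pck1, G6pc, Fbp1, Slc37a4, Khk, Gk and Ldhd kept their direction and an adjusted p below 0.05 in both sets under all 18 alternatives. Ldha in set A passed in 14 of 18 (log2 fold change -0.71 to -0.46, adjusted p 0.0133 to 0.153) and Ldhb in 1 of 18, and neither passed in set B. Between the sets no member passed under any of the 18, the lowest adjusted p being 0.0558 for Slc37a4 and 0.463 for G6pc. The number of genes called between the sets, 1 higher and 0 lower in set B, was 5 higher and 1 lower with no filter on low counts, 15 and 14 with DESeq2, 0 higher with limma-trend or with only the 2 groups compared, and 0 to 7 higher with a kidney left out (3 without set B replicate 2 and 7 without set B replicate 4); the cause was not tested. At an unadjusted p below 0.05 it was 587. No pairing by replicate number was seen, as same-numbered kidneys' deviations correlated at -0.06 to 0.05. Whether any kidneys of different groups came from the same mouse cannot be told from this. With a replicate block, 8 of 9 members were lower in set A and 7 of 9 in set B, and 1157 genes were higher and 1334 lower in set A; among the pathway genes the block ended the calls of Slc2a5 in set B and Slc16a7 in both sets, and Hk1 and Irs1 passed in set A. Among the markers it ended the calls of Cd3e in both sets and Pvalb in set B. The depth of 15367342 reads in the smallest library put 3 counts at 0.195 CPM, so folds of Hk2, Slc2a5 in set A and Slc16a7 in both sets are bounds.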
